A study of Homo sapiens with 6 samples.

Results

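Antisense RNAs whose names join a coding gene's symbol to -AS and a digit are described here in RBE cells, each beside the coding gene it is named for. Of the 63186 genes in the deposited count table, 1825 carry such a name and 1365 of these had any count. The members were chosen by their measured counts: an antisense RNA was kept where at least 3 of the 6 libraries held 50 or more raw counts, which left 161. Just inside that limit lay ENTPD1-AS1, RHPN1-AS1 and SLC16A4-AS1, with 51 counts in the third-highest library, and CCNY-AS1, GPRC5D-AS1 and PARD6G-AS1, with 52. Just outside lay C1QTNF1-AS1, DPP10-AS1, NR2F2-AS1, RAB11B-AS1, ZBED5-AS1 and ZNF529-AS1, with 48. The limit does not look at the groups, but 3 members reached it only in the knockdown libraries (CCNY-AS1, CKMT2-AS1 and TM4SF18-AS1) and 1 only in the control libraries (SLC16A4-AS1). Those 4 had to differ between the groups, so their values are given as a description with no test. A coding partner was found for 160 members, 158 distinct genes in all, because BCAN and DLGAP1 each have 2 antisense members, and HOXB-AS3 is named for a cluster.

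RBE is an established human line of intrahepatic cholangiocarcinoma, which arises from bile ducts within the liver. At about 60% confluency, cells received siRNA: 3 libraries come from control siRNA (si-Ctrl) and 3 from siRNA to CHAF1A (si-CHAF1A), all harvested at 48 h. All 6 libraries thus share the cell line and the transfection, and the model is a single line with a reduced, not deleted, target. How many different siRNAs were used is not stated in the labels. CHAF1A codes for the large subunit of the CAF-1 complex, which places histones on newly copied DNA, and the comparison asks which RNAs change when it is reduced.

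Antisense RNAs are transcribed from the DNA strand opposite a coding gene. Many begin close to the coding gene's own start and run away from it, because promoters without a fixed direction can fire both ways. Others begin inside the gene or beyond its end and run back through it. Such RNAs are often short-lived: termination by Integrator and other factors and decay by the nuclear RNA exosome keep many of them low. Nucleosomes placed at promoters and within genes are known to limit transcription from cryptic and antisense starts.

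The libraries held between 15643381 and 20918997 counts. CHAF1A read 51.5, 59.8 and 51.0 CPM (counts scaled to library size with edgeR's TMM factors) in the control libraries and 11.1, 12.9 and 11.2 in the knockdown libraries, a log2 fold change of -2.21 (with SE 0.10, adjusted p = 2.57e-10 in edgeR). All 3 knockdown libraries lay below all 3 controls. The 6 biliary markers summed to between 1723 and 2082 CPM in the controls and between 2342 and 2537 in the knockdown, a sum carried by KRT7 (not called) and KRT19 (higher), while SOX9 was lower (68.7 ± 1.0 to 57.2 ± 2.32 CPM). The 5 hepatocyte markers summed to at most 0.713 CPM and the 4 leukocyte markers to at most 0.832 in any library, and F9 was at 0. The 4 fibroblast markers summed to 8.66 to 11.8 CPM in the controls and 15.6 to 30.6 in the knockdown, and the 3 endothelial markers to 2.41 to 3.71 and 6.32 to 8.86. The part of these marker shifts in the results below was not tested. In RNA from whole cultures, fewer cells of a kind and less RNA per cell cannot be told apart.

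Promoter sequences are shown for WARS2-AS1 and CCNY-AS1, chosen by the size of their rise. Others are from pairs with starts within 1 kb in which both RNAs passed the test. CCNY-AS1 rose by less than 2-fold and is given without a test. The sequences were taken from RefSeq (GRCh38.p14). It had a window of 300 bases for 125 of the 161 antisense RNAs and 134 of the 158 partners. Each runs 5′ to 3′ on the gene's own strand, from 250 bases before the start to 50 after it. Capitals mark the letters of the TATA box (TATAAA), of the CCAAT box, of the GC box (GGGCGG) and of the cAMP response element (TGACGTCA), searched on both strands, so that reverse complements are in capitals as well.
WARS2-AS1: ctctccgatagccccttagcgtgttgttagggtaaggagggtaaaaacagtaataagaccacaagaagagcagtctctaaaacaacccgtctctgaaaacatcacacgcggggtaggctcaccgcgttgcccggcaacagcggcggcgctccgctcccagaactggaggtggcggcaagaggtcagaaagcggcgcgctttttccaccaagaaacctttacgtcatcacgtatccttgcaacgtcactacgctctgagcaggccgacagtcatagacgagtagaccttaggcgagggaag
CCNY-AS1: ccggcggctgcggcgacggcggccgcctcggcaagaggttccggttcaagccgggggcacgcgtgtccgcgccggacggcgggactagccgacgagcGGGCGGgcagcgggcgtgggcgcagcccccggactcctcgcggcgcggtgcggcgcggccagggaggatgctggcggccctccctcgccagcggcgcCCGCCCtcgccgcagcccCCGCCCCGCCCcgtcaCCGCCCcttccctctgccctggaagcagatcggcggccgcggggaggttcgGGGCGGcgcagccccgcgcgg
TPT1-AS1: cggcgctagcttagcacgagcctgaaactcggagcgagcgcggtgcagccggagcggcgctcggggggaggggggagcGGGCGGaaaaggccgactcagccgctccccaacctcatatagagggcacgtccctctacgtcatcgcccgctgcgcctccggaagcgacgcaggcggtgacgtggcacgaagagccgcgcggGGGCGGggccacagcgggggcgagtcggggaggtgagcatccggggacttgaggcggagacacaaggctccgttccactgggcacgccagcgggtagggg
TPT1: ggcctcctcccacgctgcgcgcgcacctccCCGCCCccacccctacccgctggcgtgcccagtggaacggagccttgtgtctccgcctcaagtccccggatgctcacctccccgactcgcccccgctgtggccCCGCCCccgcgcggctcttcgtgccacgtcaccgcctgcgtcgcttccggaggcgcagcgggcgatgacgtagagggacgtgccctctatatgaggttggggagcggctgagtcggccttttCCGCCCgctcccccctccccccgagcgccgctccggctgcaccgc
STARD7-AS1: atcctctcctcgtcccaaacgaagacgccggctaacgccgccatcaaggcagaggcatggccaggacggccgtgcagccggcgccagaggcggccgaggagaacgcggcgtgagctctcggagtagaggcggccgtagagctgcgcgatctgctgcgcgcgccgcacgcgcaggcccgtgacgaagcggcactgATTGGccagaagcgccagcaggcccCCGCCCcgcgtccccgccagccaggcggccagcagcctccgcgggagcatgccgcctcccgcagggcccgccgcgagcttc
STARD7: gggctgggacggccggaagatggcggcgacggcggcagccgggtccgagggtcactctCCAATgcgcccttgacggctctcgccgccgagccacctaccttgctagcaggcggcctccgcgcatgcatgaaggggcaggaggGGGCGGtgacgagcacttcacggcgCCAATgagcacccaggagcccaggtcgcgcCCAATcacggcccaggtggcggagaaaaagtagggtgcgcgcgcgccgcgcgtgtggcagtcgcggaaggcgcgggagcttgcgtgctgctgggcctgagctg
NNT-AS1: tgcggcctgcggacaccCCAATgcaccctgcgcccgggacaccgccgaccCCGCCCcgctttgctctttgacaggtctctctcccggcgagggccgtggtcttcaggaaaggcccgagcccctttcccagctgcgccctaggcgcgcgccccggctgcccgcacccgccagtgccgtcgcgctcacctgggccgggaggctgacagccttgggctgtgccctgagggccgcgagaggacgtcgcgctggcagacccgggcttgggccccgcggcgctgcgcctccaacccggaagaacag
NNT: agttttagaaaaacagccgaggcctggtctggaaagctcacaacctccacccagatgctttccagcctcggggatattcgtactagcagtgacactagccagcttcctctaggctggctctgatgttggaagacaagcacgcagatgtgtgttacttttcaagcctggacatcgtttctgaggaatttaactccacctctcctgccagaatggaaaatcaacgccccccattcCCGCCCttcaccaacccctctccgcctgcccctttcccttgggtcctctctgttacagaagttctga

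The window of WARS2-AS1 is chr1:119140146-119140445 (plus strand) and holds none of these motifs, with 55.0% G+C and 23 CG pairs. That of CCNY-AS1, chr10:35336375-35336674 (minus strand), is the richest of those shown, with 82.0% G+C, 53 CG pairs and 6 GGGCGG motifs, of which 2 overlap each other. The windows of TPT1-AS1 (chr13:45341095-45341394, plus strand) and TPT1 (chr13:45341134-45341433, minus strand) share 261 bases, since the RefSeq starts lie 162 bases apart. They hold 2 and 3 GGGCGG motifs. The STARD7 pair (chr2:96208166-96208465 on the plus strand and chr2:96208778-96209077 on the minus strand) starts 411 bases apart, with 1 CCAAT motif on the antisense side and 3 on the coding side. The NNT pair (chr5:43603181-43603480 on the minus strand and chr5:43602425-43602724 on the plus strand) starts 555 bases apart by the first of the 2 NNT starts in RefSeq. The second lies 50 bases from that of NNT-AS1, and its window has 71.0% G+C and 30 CG pairs. The antisense window has 74.0% G+C and 34 CG pairs, and the coding window shown 52.3% and 8.

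Windows of antisense RNAs were rich in G+C, and so were those of their partners. Over the 125, the median was 64.3% G+C with 25 CG pairs, and 64.0% held a GC box, 36% a CCAAT box, 5.6% a TATA box and 1.6% a cAMP response element. Over all 27305 windows of the table, the median was 58.3% G+C with 14 CG pairs, and 44.6%, 35.7%, 12.0% and 1.98% held those motifs in the same order. Over the 134 windows of partners, the median was 67.0% G+C with 25.5 CG pairs. A GC box was held by 64.9% of them, a CCAAT box by 35.8%, a TATA box by 8.21% and a cAMP response element by 3.73%. In 38 windows the antisense RNA starts within 1 kb of a head-to-head partner (5′ ends near or overlapping). These reached a median of 69.7% G+C and 33 CG pairs. The other 87 lay at 63.7% and 22. A matching motif is a description of the letters and not a binding site.

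After knockdown of CHAF1A, 35 of the 161 antisense RNAs passed the test (edgeR quasi-likelihood, adjusted p under 0.05 over all 15911 tested genes): 23 were higher and 12 lower. Without the 4 members that reached the count limit in 1 group only, 20 were higher and 11 lower of 157. The counts depend on single libraries: 15 were higher without si-CHAF1A 2, and 6 lower without si-Ctrl 3. DESeq2 called 7 lower. The remaining 126 were not called, and the median log2 fold change over the 161 was 0.08. Over all tested genes 37.8% were called, 18.5% higher and 19.3% lower, and 44.2% of those at the same count limit were called. Of genes at the limit in libraries of both groups 43.5% were called, beside 19.7% of the 157 antisense RNAs. The groups did not overlap for 51 of the 157 (32.5%), beside 53.7% of all genes at the limit in libraries of both groups. Over all tested genes, with no count limit, that share was 48.2%.

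Most antisense RNAs lay at low counts, so the shares were also taken by level. Members and genes that reached the limit in 1 group only weigh most at low counts, and are left out first. Of the 74 other members with a mean under 5 CPM, 5 were called (6.76%), beside 18.6% of all such genes in that range. Between 5 and 20 CPM, 18 of 72 were called (25%, beside 37.0%). At 20 CPM and over, 8 of 11 were called (72.7%, beside 49.8%). With the 1-group members and genes, the shares were 10.4% (beside 28.2%), 26.0% (beside 37.4%) and 72.7% (beside 49.9%). The share called climbed with level among the antisense RNAs and among all genes, as the plot of calls by level shows. The antisense RNAs lay under the background in the lower ranges, where their numbers are large. They lay above it in the highest, which holds 11 members. The mean is over all 6 libraries, and WARS2-AS1, under 20 CPM in every control, is in that range only through its knockdown libraries. It is among the 8 called there.

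**Figure D1:**
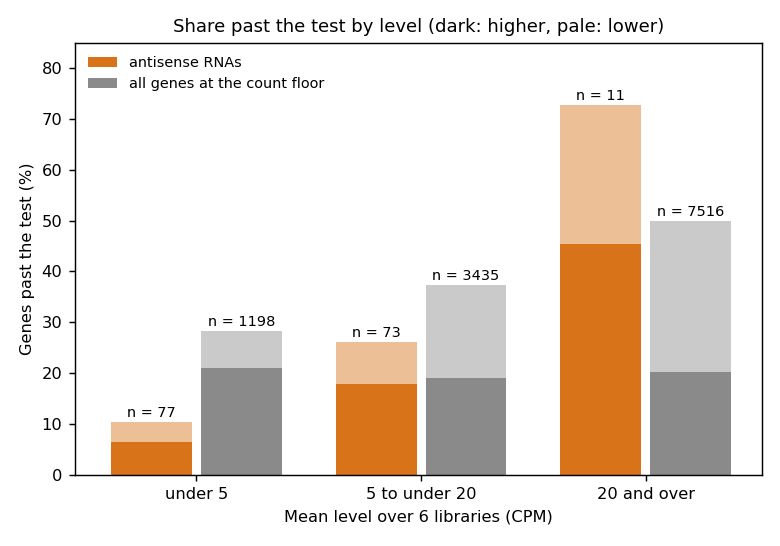
Share of genes past the edgeR test (percent, vertical axis) in 3 ranges of mean CPM (horizontal axis), for the antisense RNAs (orange) and all genes at the same count limit (grey), those that reached it in 1 group only included, with the higher part dark, the lower part pale and the number of genes above each bar. The antisense share goes from 10.4% to 26.0% and 72.7%, and that of all genes from 28.2% to 37.4% and 49.9%.

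Most changes were small. Of the called members that reached the count limit in both groups, 2 moved by 2-fold or more, WARS2-AS1 upward and C12orf75-AS1 downward. TM4SF18-AS1, given without a test, also lay over 2-fold higher. The 161 antisense RNAs together made up 1455, 1377 and 1440 CPM in the control libraries and 1561, 1599 and 1581 in the knockdown libraries. Without WARS2-AS1 and TM4SF18-AS1 the sums were 1445, 1370 and 1428 against 1428, 1459 and 1442, and the groups overlapped.

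**Figure D2:**
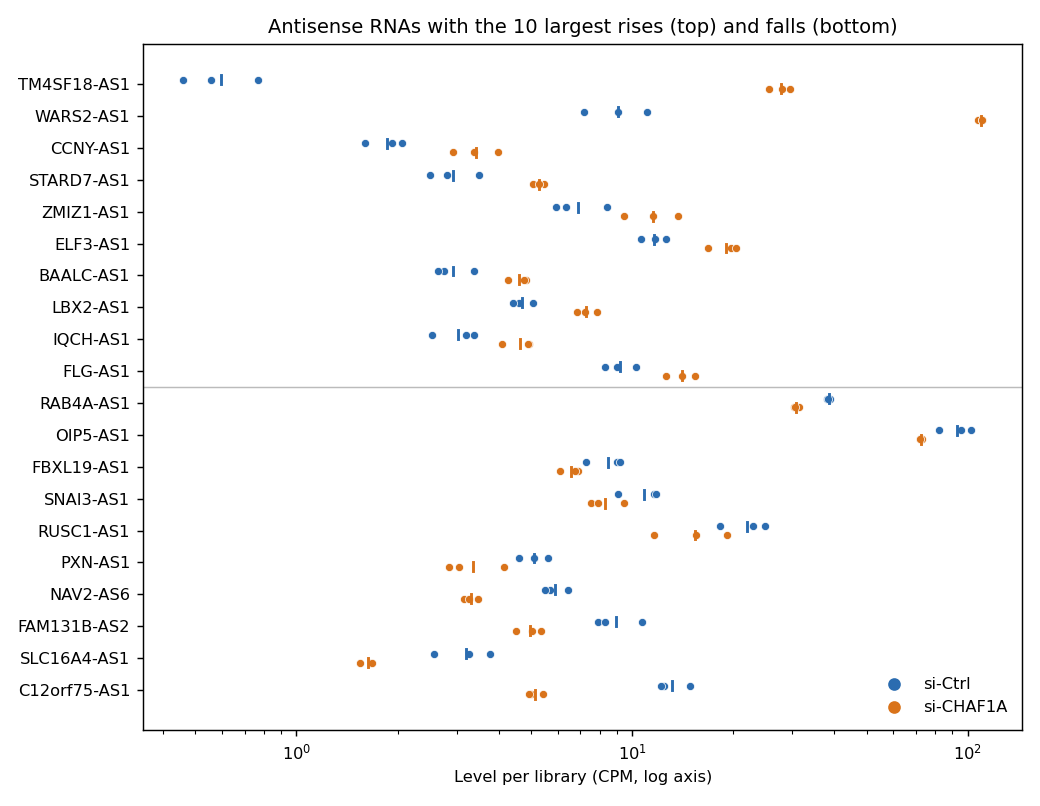
CPM in each of the 6 libraries (log axis) for the antisense RNAs with the 10 largest rises and the 10 largest falls, with si-Ctrl in blue, si-CHAF1A in orange and a short line at each group's mean. WARS2-AS1 and TM4SF18-AS1 stand far from the rest, with knockdown libraries at 107 to 111 and 25.6 to 29.6 CPM, and C12orf75-AS1 falls from 12.2 to 14.9 CPM to at most 5.44.

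WARS2-AS1 (chr1:119140396-119275973, plus strand, GRCh38) rose most among the members that reached the count limit in every library. It begins inside the gene of WARS2, the mitochondrial tryptophanyl-tRNA synthetase, 275 bases from that gene's start. From there WARS2-AS1 runs across that start and out of the gene, and it shares exon with WARS2. Its level was 9.08, 7.18 and 11.1 CPM in the controls and 107, 110 and 111 CPM in the knockdown, 9.11 ± 1.95 and 109 ± 1.91 (SD, n = 3), a rise of 12.1-fold (3.59 on the log2 scale with SE 0.11, adjusted p = 2.71e-12 in edgeR). The groups lay far apart, and in each knockdown library it had the highest CPM, a scale not corrected for length, of all 161 antisense RNAs. WARS2 read 18.2, 16.6 and 17.5 CPM against 15.5, 16 and 18.7, with overlapping groups (log2 fold change -0.06, SE 0.10, adjusted p = 0.712). No other tested gene lay within 100 kb of the antisense RNA.

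TM4SF18-AS1 (chr3:149284782-149333653, plus strand) was close to silent in the controls, with 12, 11 and 8 counts, and reached 431, 516 and 500 counts in the knockdown. On the CPM scale that is 0.768, 0.556 and 0.459 against 25.6, 29.6 and 28.0, a log2 fold change of 5.55 (SE 0.17). It is one of the members that reached the count limit only through the knockdown libraries. It begins beyond the end of TM4SF18, a membrane protein of the L6 tetraspan family, and runs back through most of that gene, with 141 bases of shared exon. TM4SF18 moved the other way: 125, 111 and 118 CPM in the controls and 93.3, 96.7 and 92.1 in the knockdown (edgeR log2 fold change -0.32, SE 0.07, adjusted p = 0.00147). Its groups did not overlap. The next coding gene, TM4SF1, of the same family, rose from 223, 214 and 232 CPM to 359, 368 and 363 (log2 fold change 0.71, edgeR adjusted p = 2.69e-07). TM4SF1-AS1, which is under the count limit, lay at 1.02 to 1.43 CPM and 1.38 to 2.26 CPM (log2 fold change 0.38, edgeR adjusted p = 0.35).

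A further set of antisense RNAs rose by less than 2-fold. ELF3-AS1 lies beside ELF3, an ETS transcription factor of epithelial cells. It read 12.6, 10.7 and 11.7 CPM in the controls and 19.7, 20.4 and 16.8 in the knockdown (edgeR log2 fold change 0.71, SE 0.11, adjusted p = 0.00014), with no overlap. ZMIZ1-AS1, which starts 1140 bases before the transcriptional coactivator gene ZMIZ1, read 5.95, 8.44 and 6.37 against 9.45, 13.7 and 11.6 CPM (0.73, SE 0.16, adjusted p = 0.00215). STARD7-AS1 read 2.49, 3.49 and 2.81 against 5.47, 5.05 and 5.27 CPM (0.83, SE 0.19, adjusted p = 0.00219). In both, every knockdown library lay above every control.

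LBX2-AS1, beside a homeobox gene, read 4.61, 5.05 and 4.42 CPM in the controls and 7.85, 6.83 and 7.24 in the knockdown (log2 fold change 0.64, edgeR adjusted p = 0.00303). FLG-AS1 spans FLG, which codes for the epidermal protein filaggrin, and read 8.32, 10.3 and 9.0 against 12.7, 15.4 and 14.1 CPM (0.61, adjusted p = 0.00108). The groups were apart for both. BAALC-AS1 read 2.75, 3.39 and 2.64 against 4.82, 4.77 and 4.26 CPM (0.65, adjusted p = 0.0128), and IQCH-AS1 3.20, 2.53 and 3.38 against 4.93, 4.88 and 4.09 CPM (0.61, adjusted p = 0.0198). The call on IQCH-AS1 was lost in 4 of 10 alternative settings (another scaling, tool or filter, a block, or 1 library left out) and that on BAALC-AS1 in 2. CCNY-AS1, inside an intron of the cyclin Y gene, lay at 1.6, 1.92 and 2.06 CPM and at 3.98, 3.39 and 2.92 CPM, and is among the members given without a test.

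Further called rises were also under 2-fold. DHRS4-AS1, around the retinoid dehydrogenase gene DHRS4, rose from 8.89, 9.20 and 8.83 to 10.8, 14.5 and 15.1 CPM (edgeR log2 fold change 0.59, adjusted p = 0.00289), while DHRS4 was not called (-0.01, adjusted p = 0.965). ALDH1A3-AS1, tail-to-tail with a retinaldehyde dehydrogenase gene, rose from 23.5, 21.8 and 23.1 to 27.3, 29.7 and 29.3 CPM (0.34, adjusted p = 0.00613). The groups were apart for both antisense RNAs. ZNF213-AS1 (0.46, adjusted p = 0.0135), NUTM2A-AS1 (0.36, adjusted p = 0.0479) and PCGF3-AS1 (0.30, adjusted p = 0.0281) were called as well, NUTM2A-AS1 with overlapping groups. CKMT2-AS1, given without a test, lay at 2.24 to 2.48 CPM in the controls and 3.39 to 3.70 in the knockdown.

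C12orf75-AS1 fell most. It lies inside C12orf75 and shares 48 bases of exon with it. Its level was 14.9, 12.5 and 12.2 CPM in the controls and 4.99, 4.94 and 5.44 in the knockdown, 13.2 ± 1.5 and 5.12 ± 0.276 (SD, n = 3), a fall of 2.56-fold (-1.36 on the log2 scale with SE 0.13, adjusted p = 1.26e-06 in edgeR). All knockdown libraries lay under all controls. FAM131B-AS2, which despite its name lies on the same strand as FAM131B, fell from 7.93, 10.7 and 8.32 to 4.52, 5.34 and 5.05 CPM (-0.86, SE 0.16, adjusted p = 0.000447). NAV2-AS6, inside an intron of NAV2, fell from 5.69, 5.51 and 6.42 to 3.15, 3.27 and 3.48 CPM (-0.83, SE 0.17, adjusted p = 0.00103). For both, the groups were apart.

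PXN-AS1, beside the gene of the focal adhesion protein paxillin, read 5.12, 4.60 and 5.62 CPM in the controls and 2.85, 3.04 and 4.15 in the knockdown (log2 fold change -0.60, edgeR adjusted p = 0.021). RUSC1-AS1 was called lower although its groups overlap, with 24.8, 18.2 and 22.9 against 11.6, 15.5 and 19.2 CPM (-0.50, adjusted p = 0.0198), and so was SNAI3-AS1 (-0.39, adjusted p = 0.0389). FBXL19-AS1 read 7.29, 9.05 and 9.18 against 6.90, 6.78 and 6.11 CPM (-0.37, adjusted p = 0.0495). SVIL-AS1 was lower by a narrow margin (-0.25, adjusted p = 0.0463). Several calls are fragile: in 10 alternative settings, that on FBXL19-AS1 was lost in 9, that on SNAI3-AS1 in 6, and those on PXN-AS1 and RUSC1-AS1 in 4 each. SLC16A4-AS1, in an intron of a gene of the monocarboxylate transporter family, lay at 3.26, 2.58 and 3.78 CPM in the controls and 1.55, 1.67 and 1.68 in the knockdown, with no test given for it.

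Of the 6 antisense RNAs with the highest mean CPM, those other than WARS2-AS1 moved little. FGD5-AS1 read 97.9, 90.9 and 97.8 CPM in the controls and 86.3, 85.3 and 85 in the knockdown. Its groups did not overlap, but it was not called (log2 fold change -0.16, edgeR adjusted p = 0.0674). OIP5-AS1 fell from 95.2, 81.9 and 102 to 72.3, 73.3 and 72.3 CPM (-0.36, adjusted p = 0.0023), while its partner OIP5, a centromere licensing factor, was too low to test. RAB4A-AS1 fell from 38.1, 39.0 and 38.5 to 30.4, 31.4 and 30.6 CPM (-0.32, adjusted p = 0.0038), while RAB4A itself, a GTPase of recycling endosomes, was not called (0.10, adjusted p = 0.35). PAX8-AS1 rose from 65.8, 65.2 and 68.6 to 85.9, 81.4 and 87.2 CPM (0.35, adjusted p = 0.000679). PSMA3-AS1 read 31.2, 24.8 and 32.1 against 29.8, 29.4 and 31.5 CPM, with overlapping groups (0.05, adjusted p = 0.754).

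The coding partners were tested for 145 of 158. Of these, 27 were higher, 41 lower and 77 not called, with a median log2 fold change of -0.02. Among all tested protein-coding genes 20.5% were higher and 22.4% lower. The groups did not overlap for 84 partners, 57.9% of those tested, near the 53.3% of all tested protein-coding genes. Among the partners that rose, SLC16A4 went from 3.77, 3.08 and 2.98 to 8.80, 8.84 and 9.48 CPM (edgeR log2 fold change 1.47, SE 0.15, adjusted p = 2.45e-06). PARD6G, a cell polarity gene, went from 6.40, 5.51 and 4.99 to 11.3, 13.1 and 11.3 CPM (1.08, SE 0.14, adjusted p = 1.72e-05). BAALC went from 0.768, 0.606 and 0.746 to 0.951, 1.84 and 1.51 CPM (1.03, SE 0.35, adjusted p = 0.0306), a call lost in 8 of 10 alternative settings.

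DICER1, the nuclease that makes small RNAs from double-stranded precursors, fell most among the partners. It read 272, 233 and 270 CPM in the controls and 132, 142 and 145 in the knockdown (edgeR log2 fold change -0.88, SE 0.07, adjusted p = 1.95e-07), with groups far apart. Its antisense RNA, DICER1-AS1, read 1.92, 2.73 and 1.84 against 2.56, 3.39 and 4.15 CPM, with overlapping groups (0.63, SE 0.25, adjusted p = 0.0552). PRKCQ, protein kinase C theta, fell from 7.29, 6.37 and 6.08 to 3.75, 4.19 and 3.37 CPM (-0.80, adjusted p = 0.00117). ZNF503, a zinc finger gene, fell from 20.8, 22.8 and 21.4 to 14.1, 11.6 and 11.9 CPM (-0.79, adjusted p = 2.9e-05). The antisense RNAs beside PARD6G, PRKCQ and ZNF503 named here (PARD6G-AS1, PRKCQ-AS1 and ZNF503-AS2) were not called.

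Antisense RNAs were usually scarcer than their partners. Per length of exon, the median over the control libraries was 1.72 RPKM (reads scaled to exon length and library size) for antisense RNAs and 4.79 for partners, and the antisense RNA was the higher in 50 of 159 pairs. Both RNAs were tested in 146 pairs. Both were called in 17, 9 in the same direction and 8 in opposite ones, of which those of TM4SF18 and SLC16A4 rest on antisense RNAs that reached the count limit in 1 group only. Pairs called the same way numbered 5 without si-CHAF1A 2 and 5 by DESeq2. Those called in opposite ways numbered 5 without si-Ctrl 3, si-CHAF1A 2 or si-CHAF1A 3. The antisense RNA alone was called in 16 pairs, the partner alone in 51 and neither in 62. Of the 33 pairs with a called antisense RNA, the partner was called in 17, near the 46.9% called among all tested partners. The joint calls thus do not show that the RNAs of a pair change together or apart. Over the 146 pairs, the log2 fold changes of antisense RNA and partner had Pearson's r of -0.005 and Spearman's rho of 0.10, as a description of values from the same libraries. The 2 largest risers weigh on r, which was 0.09 over the other 144.

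**Figure D3:**
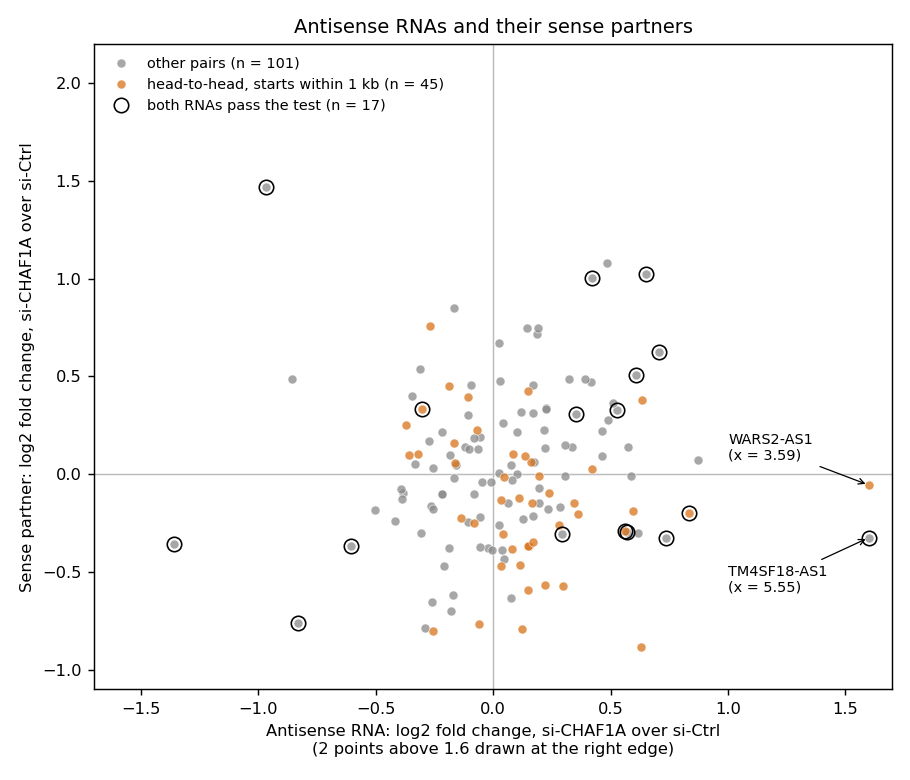
Log2 fold change (si-CHAF1A over si-Ctrl) of each antisense RNA (horizontal axis) against that of its coding partner (vertical axis), with 1 point per pair, n = 146 (the 2 points beyond the axis, WARS2-AS1 and TM4SF18-AS1, are drawn at its right edge). The points scatter over all quadrants, 17 pairs in which both passed the test are ringed, and the 45 pairs with starts within 1 kb are drawn in orange.

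In the 9 pairs that moved the same way, both RNAs rose or both fell. ELF3, with ELF3-AS1, rose from 83.2, 91.7 and 91.1 to 145, 124 and 141 CPM (log2 fold change 0.62, edgeR adjusted p = 9.01e-06). FLG, with FLG-AS1, rose from 26.0, 30.1 and 24.6 to 38.3, 41.7 and 34.7 CPM (0.51, adjusted p = 0.000756). GAS6, a ligand of the AXL receptor family, rose by 0.33 on the log2 scale (adjusted p = 0.00204) beside GAS6-AS1, which went from 22.3, 22.9 and 20.2 to 31.9, 29.6 and 32.9 CPM (0.53, adjusted p = 0.000253). In all of these the groups were apart.

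LOXL1, a lysyl oxidase that crosslinks elastin, rose from 0.832, 1.21 and 1.43 to 2.50, 2.47 and 2.08 CPM (log2 fold change 1.00, edgeR adjusted p = 0.0103). LOXL1-AS1 went from 6.78, 6.92 and 8.03 to 9.75, 10.2 and 9.14 CPM (0.42, adjusted p = 0.0178), a call lost in 4 of 10 alternative settings. PAX8 rose beside PAX8-AS1 (0.31, adjusted p = 0.0338), and the BAALC pair makes up the remaining joint rise. The other 3 pairs fell together. NAV2 went from 111, 123 and 116 to 69.5, 72.6 and 65.0 CPM (-0.76, adjusted p = 7.05e-07), and C12orf75 from 241, 222 and 253 to 181, 189 and 189 CPM (-0.35, adjusted p = 0.000533). PXN fell by 0.36 on the log2 scale (adjusted p = 0.000651) beside PXN-AS1.

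Of the 8 pairs that moved in opposite directions, 6 had a higher antisense RNA and a lower partner. Beside ZMIZ1-AS1, ZMIZ1 fell from 353, 399 and 345 to 288, 296 and 291 CPM (log2 fold change -0.33, edgeR adjusted p = 0.00109). Beside STARD7-AS1, STARD7, which carries phosphatidylcholine to mitochondria, fell from 175, 169 and 183 to 157, 154 and 149 CPM (-0.20, adjusted p = 0.0218). That partner's call was lost in 5 of 10 alternative settings.

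HIF1A-AS3 rose from 4.99, 4.45 and 5.62 to 7.07, 8.67 and 6.56 CPM (log2 fold change 0.57, edgeR adjusted p = 0.0107) while HIF1A, the oxygen-regulated transcription factor, went from 1298, 1076 and 1302 to 957, 1024 and 1009 CPM (-0.30, adjusted p = 0.00458). TPT1-AS1 rose from 6.72, 5.56 and 7.05 to 9.93, 9.65 and 8.86 CPM (0.56, adjusted p = 0.00453) while TPT1, which codes for the translationally controlled tumour protein, went from 1107, 1020 and 1060 to 869, 861 and 871 CPM (-0.29, adjusted p = 0.000912). THUMPD3-AS1 rose from 20.9, 17.3 and 20.9 to 24.6, 23.5 and 24.3 CPM (0.29, adjusted p = 0.0272) beside a lower THUMPD3 (-0.31, adjusted p = 0.0207), and the TM4SF18 pair completes the 6. In the other direction, NNT-AS1 fell from 14.9, 14 and 15.3 to 11.2, 13.2 and 11.4 CPM (-0.30, adjusted p = 0.0391) beside a higher NNT, the transhydrogenase of the inner mitochondrial membrane (0.33, adjusted p = 0.00103). The call on NNT-AS1 was not kept in all 10 alternative settings. SLC16A4-AS1 lay lower beside the higher SLC16A4.

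The balance within a pair was also followed as the log2 ratio of antisense to partner CPM (each plus 0.5) in every library. Between the groups it did not overlap in 75 of the 146 tested pairs, being higher in the knockdown in 43 and lower in 32. No share over other gene pairs was taken beside these counts. They include the TM4SF18 and SLC16A4 pairs, whose antisense RNAs reached the count limit in 1 group only and are given without a test. An exact two-sided permutation test of 3 libraries against 3 cannot go below p = 0.1. Any pair without overlap has that value, so the test adds nothing to the counts. Among the pairs called in opposite ways, the ratio changed by 5.02 in the TM4SF18 pair, -2.13 in the SLC16A4 pair, 1.03 in the ZMIZ1 pair, 0.96 in the STARD7 pair, 0.82 in the TPT1 pair, 0.81 in the HIF1A pair, 0.59 in the THUMPD3 pair and -0.63 in the NNT pair, and in all 8 the groups were apart. Those 8 had to lie apart, since each RNA's own groups were apart and moved in opposite directions. Of the pairs called the same way, the ratio groups of C12orf75 (-0.93), LOXL1 (-0.39) and GAS6 (0.19) were apart, and the rest overlapped. Changes in the same direction cancel in a ratio, so the contrast follows in part from how the pairs were sorted.

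**Figure D4:**
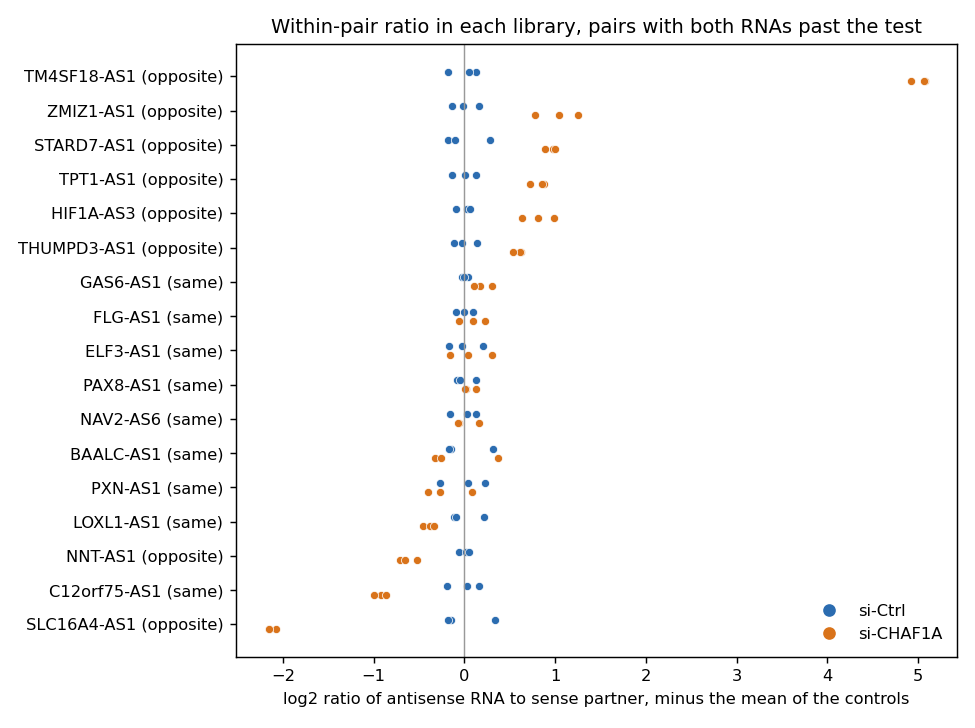
Log2 ratio of antisense to partner CPM (each plus 0.5) in each of the 6 libraries, minus the mean of the controls, for the 17 pairs in which both RNAs passed the test, with si-Ctrl in blue, si-CHAF1A in orange and the pair's joint direction in brackets. The TM4SF18 pair shifts by 5.02 and the SLC16A4 pair by -2.13, and most pairs called the same way keep overlapping ratios. Ratios of the pairs called in opposite ways had to lie apart, since each RNA's own groups did.

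Geometry sorts these pairs. By GENCODE 29, 70 antisense RNAs lay head-to-head with their partner (5′ ends near or overlapping, bodies running apart), 44 tail-to-tail (3′ parts overlapping), 17 around the partner, 13 inside it with shared exon and 10 inside its introns. Without the members that reached the count limit in 1 group only, calls were 8 higher and 4 lower of 70 head-to-head, 7 and 2 of 43 tail-to-tail, 4 and 1 of 16 around the partner, 0 and 1 of 13 inside with shared exon, and 0 and 1 of 8 in introns, beside 43.5% of all such genes called in either direction. Exons overlapped those of the partner for 114 members, of which 113 reached the limit in both groups, with 15 higher and 7 lower. The strand setting of the counting is not given in the sources used here, so reads of those members and of their partners may be mixed. Of 42 such members without exon overlap, 5 were higher and 3 lower.

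In 45 of the tested pairs the RNAs are head-to-head with starts within 1 kb of each other, and these are called diverging here. The class includes pairs whose 5′ ends overlap, and only 14 of the 45 share no exon. In 35 of these 45 (77.8%), the antisense RNA and its partner had log2 fold changes of opposite sign, beside 38 of the other 101 pairs (37.6%). The antisense RNA was up and the partner down in 25, the reverse held in 10, both were up in 6 and both down in 4. This pattern was noticed in these data, and most of the signs belong to RNAs that did not pass the test, so it is given as a description. The count ran from 31 without si-CHAF1A 1 to 38 without si-CHAF1A 2. Among pairs with no shared exon it was 9 of 14, beside 12 of 26 other pairs, and among members at the count limit in all 6 libraries 25 of 33, beside 30 of 78.

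Coding genes supplied most of the calls among these diverging pairs: 18 partners were lower and 5 higher, against 3 lower and 4 higher antisense RNAs. Over all tested coding genes 22.4% were lower and 20.5% higher, and in the other 101 pairs the partner was lower in 23 and higher in 22. The share called climbs with level, and antisense RNAs were usually scarcer than their partners. Among genes at the count limit with a mean of 20 CPM and over, 2231 of 7516 were lower and 1517 higher. Beside the 18 lower partners, the antisense RNA had a log2 fold change above 0 in 15, of which 2 were called higher (STARD7-AS1 and TPT1-AS1). Both RNAs were called in only 3 of the 45 pairs, those of TPT1, STARD7 and NNT, whose promoters are printed above. All 3 were called in opposite ways, but the calls on STARD7 and NNT-AS1 were not kept in all 10 alternative settings. Among the other 101 pairs, 9 moved the same way and 5 in opposite ways.

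From this class, examples of the pattern of signs with large changes in the coding gene were chosen after their values were seen. In none of these pairs was the antisense RNA called, so they show a changed coding gene beside an uncalled antisense RNA. TMPO, a nuclear lamina protein gene, fell from 252, 203 and 247 to 146, 158 and 161 CPM (log2 fold change -0.59, edgeR adjusted p = 3.41e-05). TMPO-AS1, which starts 910 bases away, read 4.29, 3.23 and 4.24 against 5.29, 3.73 and 3.98 CPM, with overlapping groups (0.15, adjusted p = 0.594). STARD4, a cholesterol transfer protein gene, fell from 258, 180 and 263 to 161, 145 and 165 CPM (-0.57, adjusted p = 0.00722), beside STARD4-AS1 at 5.05, 4.09 and 5.62 against 5.47, 5.11 and 6.56 CPM (0.22, adjusted p = 0.343). In both pairs the coding groups were apart and the antisense groups were not.

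SGMS1, which codes for a sphingomyelin synthase, fell from 57.9, 51.3 and 57.2 to 39.7, 38.1 and 34.2 CPM (log2 fold change -0.57, edgeR adjusted p = 6.35e-05), beside SGMS1-AS1 at 3.71, 4.40 and 4.65 against 4.70, 6.32 and 4.71 CPM (0.30, adjusted p = 0.212). In the reverse direction, LPP, a focal adhesion protein gene, rose from 197, 165 and 195 to 298, 317 and 326 CPM (0.76, adjusted p = 1.23e-06), beside LPP-AS2 at 3.97, 2.73 and 3.50 against 2.91, 2.70 and 2.80 CPM (-0.27, adjusted p = 0.344). STX18, a syntaxin gene of the endoplasmic reticulum, was among the exceptions: it fell by 0.77 (adjusted p = 1.18e-05), and STX18-AS1 stood at -0.06 (adjusted p = 0.834).

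The ratio was also followed library by library. The median log2 ratio itself over the 45 diverging pairs was -2.85, -2.82 and -2.71 in the control libraries and -2.78, -2.53 and -2.80 in the knockdown libraries, and these groups overlap. With each pair taken relative to its own control mean, the median was 0.01, -0.02 and 0.03 in the control libraries and 0.32, 0.27 and 0.25 in the knockdown libraries. Over the other 101 pairs it was 0.03, -0.05 and 0.03 in the controls and 0.00, 0.04 and -0.03 in the knockdown. On that scale, which sets each pair's controls at 0, all 3 knockdown libraries lay above the controls for the diverging pairs, and the groups overlapped for the others. The ratio groups were apart in 32 of the 45, 23 with a higher ratio and 9 with a lower. They were apart in 43 of the 101, 20 higher and 23 lower. No share over other gene pairs was taken beside these counts. In the 45, the partners' own groups were apart in 28 (62.2%, beside 53.3% of all tested coding genes). Those of the antisense RNAs were apart in 11 (24.4%, beside 53.7% of genes at the count limit in both groups). The ratio is built from these same values and is no separate evidence.

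**Figure D5:**
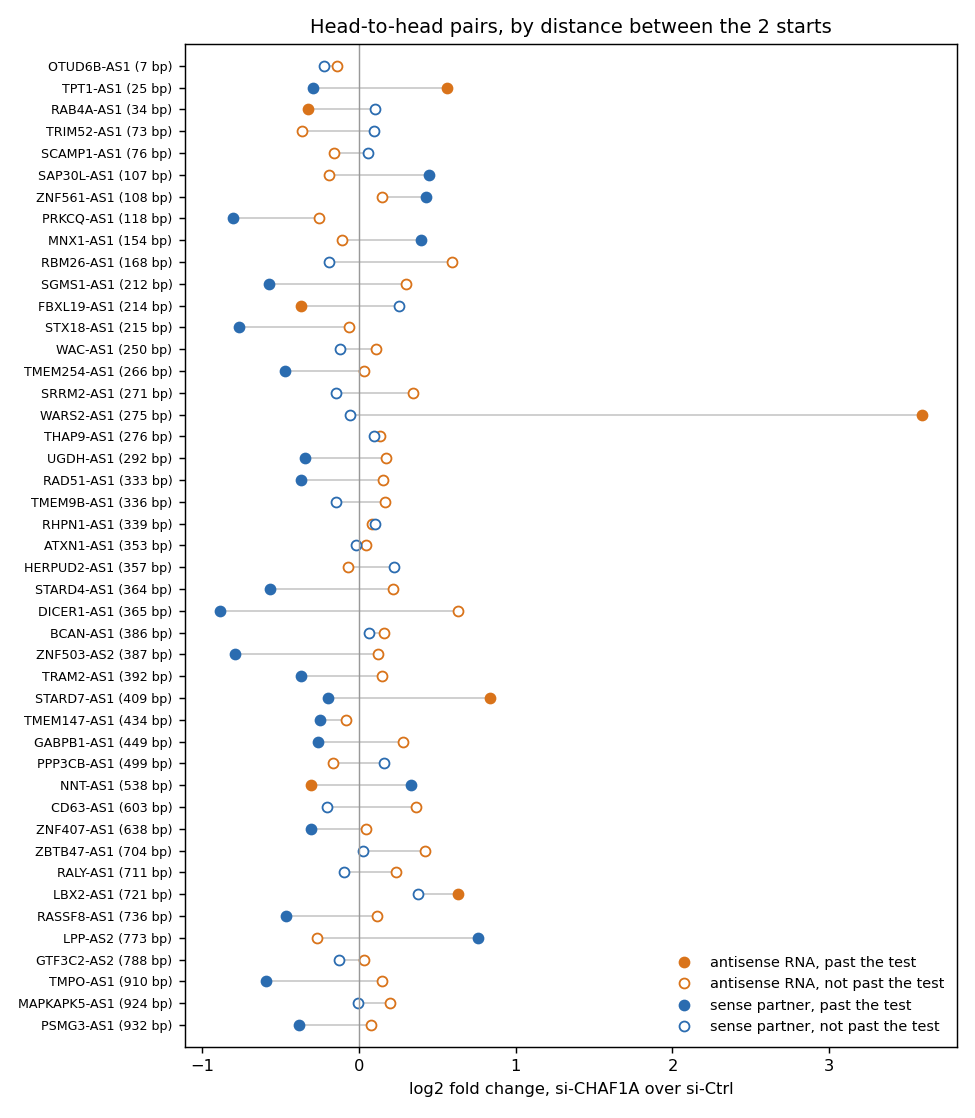
Log2 fold change (si-CHAF1A over si-Ctrl, horizontal axis) of the antisense RNA (orange) and its partner (blue) in the 45 head-to-head pairs with starts within 1 kb. Pairs are ordered by the distance between the starts, and filled points mark RNAs past the edgeR test. In 35 of the 45 pairs the points lie on opposite sides of 0, and WARS2-AS1 stands apart at 3.59.

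The machinery that ends and removes such RNAs was followed through a fixed list of 48 genes, of which 47 were tested: 2 were higher, 20 lower and 25 not called, with a median log2 fold change of -0.20. Of the 13 tested exosome genes and cofactors, 10 were lower and 0 higher, including the cofactor MPHOSPH6 (-0.89), the ring subunits EXOSC9 (-0.59) and EXOSC8 (-0.50) and the nuclease EXOSC10 (-0.46). The median over the 13 was -0.36. In the nuclear targeting complexes NEXT and PAXT, 2 of 6 were lower, the helicase MTREX (-0.24) and ZCCHC8 (-0.32). Of 5 cap-binding and ARS2 genes, SRRT (-0.55) and ZC3H18 (-0.29) were lower. Integrator was mixed, with INTS5 (0.25) and INTS9 (0.44) higher and INTS2 (-0.23), INTS6 (-0.31) and INTS7 (-0.23) lower of 14. Of 6 termination genes, the exonuclease XRN2 (-0.34) and ZC3H4 (-0.64), which restricts non-coding transcription, were lower. Among the 3 genes acting on double-stranded RNA only DICER1 was lower. All of these are edgeR calls at an adjusted p under 0.05, to be read beside 19.3% of all tested genes called lower. Among genes at the count limit with a mean of 20 CPM and over, 2231 of 7516 were lower.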

How the data were processed

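RNA was sequenced from 6 RBE libraries, 3 with control siRNA and 3 with CHAF1A siRNA, as reads of 150 bp. The authors deposited gene-level counts, whole numbers with no normalisation per the file's values. The submitters' processing notes name fastp 0.20.1, HISAT2 2.1.0, SAMtools 1.9, featureCounts 2.0.1, StringTie 2.1.4 and hg38. The libraries are strand-specific per the labels' design text, but the strand setting of the counting, the annotation release and the treatment of multi-mapping reads are not stated in the sources used here, so overlapping sense and antisense reads may be mixed. Columns named NC and si were read as control and knockdown; the CHAF1A level bears on this. Columns of other samples numbered 0. Replicates are called biological and no more is said of them, so a p-value here reflects only the spread among these 6 libraries.

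Genes were kept by filterByExpr (minimum count 10, minimum total 15), leaving 15911, and tested with edgeR 4.0.16 in R 4.3.3 (robust quasi-likelihood, TMM, no covariate), with Benjamini-Hochberg adjustment over all of them and a threshold of 0.05. CPM uses TMM library sizes and SE is the log2 fold change divided by the square root of F. The fit was tested on simulated data. Symbols came from a gene name table, positions and exons from GENCODE 29 (GRCh38), and 160 of the 161 members had a position; promoters came from RefSeq. Named were the 10 largest called rises and falls, the 6 most abundant members, up to 6 pairs called the same way and 6 called opposite ways, and the 3 partners with the largest rise and fall. Other named members were chosen after their values were seen. A called antisense RNA is counted but not reported here by name. Members and lists were chosen with earlier results of these data known. Alternatives were RLE size factors, DESeq2, no count filter, a replicate block, each library left out, the count limit in all 6 libraries, and pairs without shared exon. The comparison of diverging pairs with other pairs, the level ranges and the counts without members at the limit in 1 group only were added after seeing the data.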

Additional observations from a re-analysis of the deposited data

How the results depend on the processing

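Of the values for named genes under the alternatives, 488 kept direction and side of the threshold, 47 fell short of it, 5 newly passed it and 0 reversed. Of the 35 called antisense RNAs, 31 reached the count limit in libraries of both groups, and 17 of these kept their call in all 10 settings run on every gene, 12 higher and 5 lower. DESeq2 called 16 antisense RNAs higher and 7 lower, with 5 pairs called the same way. With the count limit in all 6 libraries, 5 pairs were called opposite ways. Among members without exon overlap, 7 antisense RNAs were higher and 4 lower, and 7 partners higher and 10 lower. There, 2 pairs were called the same way and 3 opposite ways, and fewer members were counted. Those counts include members that reached the count limit in 1 group only, such as SLC16A4-AS1 among the opposite pairs. Without such members, 5 antisense RNAs were higher and 3 lower of 42. Leaving out 1 library at a time gave 15 to 21 higher antisense RNAs (fewest without si-CHAF1A 2) and 6 to 14 lower (fewest without si-Ctrl 3). Partners then numbered 21 to 34 higher and 31 to 46 lower, with 5 to 11 pairs called the same way (fewest without si-CHAF1A 2) and 5 to 9 opposite ways (fewest without si-Ctrl 3, si-CHAF1A 2 or si-CHAF1A 3). The cause of these differences was not tested. A log2 fold change of an antisense RNA near 50 counts is limited by counting noise: 45 members had at most 200 counts over the 3 controls.

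With a replicate block, 21 antisense RNAs were higher and 8 lower, 25 partners higher and 34 lower, and 7 pairs were called the same way and 6 opposite ways. The numbers are shared but do not pair the samples: same-numbered deviations correlated at -0.09, -0.06 and -0.003, and 0 of 3 numbers were best matched with their own.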

Other observations

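Other classes of named non-coding RNA were counted in the same edgeR fit (adjusted p under 0.05) at the same count limit. Of all genes at that limit 44.2% were called, and 43.5% of those that reached it in libraries of both groups. Of 78 LINC-named intergenic RNAs, 21 were higher and 8 lower (37.2%), with a median log2 fold change of 0.16, and 15 higher and 8 lower of the 71 that reached the limit in libraries of both groups. Of 60 divergent transcripts, named -DT for RNAs that start beside a coding gene and run away from it, 5 were higher and 1 lower (10.0%), with a median of 0.15, and 4 higher and 1 lower of the 59 that did so in both. Of 4 RNAs named -AS without a number 1 was higher and 0 lower, and of 2 sense-intronic RNAs 1 was higher and 1 lower. Over the 161 antisense RNAs the share called was 21.7% (19.7% of the 157 that did so in both) and the median 0.08. Whether these classes differ was not tested.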
